A study of Homo sapiens with 15 samples.

Results

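Replication-dependent histone genes encode the core histones H2A, H2B, H3 and H4, around which DNA is wound, and the linker histone H1, which binds the DNA between these particles. Members were chosen by their level: they are the rows of the count table whose symbol starts with HIST1H, HIST2H, HIST3H or HIST4H and whose mean over all libraries was at least 10 normalized counts. This left 20 genes of 73 rows with such a symbol, in a table of 23368 genes. By class there were 2 of 6 rows for H1, 4 of 18 for H2A, 9 of 20 for H2B, 3 of 14 for H3 and 2 of 15 for H4. Since the mean level chose these genes, the levels given here are a description, and differences between doses and clones, which the rule did not use, are tested.

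RNA was sequenced in 15 libraries from 3 clones of brain metastatic breast cancer cells, each grown from a single cell and carrying a FLAG-tagged RBM47 transgene under a doxycycline-inducible promoter. RBM47 is an RNA-binding protein. WT6 and WT10 cells carried wild type RBM47, and MUT3 cells carried the truncating mutant RBM47-I281fs. Each clone was left untreated or given 1, 2.5, 5 or 25 ng/ml doxycycline. Each combination was sequenced once, and there were no replicates. The labels give MDA231, a triple negative breast cancer line, for all clones, whereas the methods of the study derive WT6 from CN34-BrM2 and WT10 and MUT3 from a brain metastatic derivative of MDA231, so that a difference between WT6 and WT10 cannot be told apart from a difference between lines or between single clones. The duration of the treatment is not given in the sources used here. Reads from the transgene and from the cells' own RBM47 are counted together.

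Histone genes of this kind are transcribed mainly while DNA is copied, and their mRNAs are unusual in that they carry no polyA tail. They end just after a stem-loop that is bound by the protein SLBP and cleaved by a dedicated machinery. Some of the genes can also give a polyadenylated transcript that runs past the stem-loop, a form known from differentiated and resting cells. The libraries were made after polyA selection, so the counts reflect mainly RNA with a tail or with an A-rich stretch, and say little of the bulk of histone mRNA in dividing cells. Most of these transcripts are short, and reads on 1 of them can also match a close relative.

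The stem-loop was searched as GG, 3 bases, TT, 3 bases, A, 3 bases and CC on the coding strand, with the 3 bases after GG able to pair with the 3 before CC (G-U pairs allowed), in the 150 bases after each stop codon of GRCh37. It was found after 85 of 19680 protein-coding genes (0.432%), and after 18 genes (0.092%) outside the histone rows. Among the members 19 of 20 had it, and the exception was HIST2H2BA, an H2B pseudogene. The sites of members named below are shown because the cleavage of the tail-less mRNA depends on them, with the 16 bases of the stem-loop in capitals.
HIST1H2BK, chr6:27114140-27114165, minus strand: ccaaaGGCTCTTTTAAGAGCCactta
HIST1H2BD, chr6:26158810-26158835, plus strand: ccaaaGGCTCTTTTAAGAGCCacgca
HIST1H1C, chr6:26055967-26055992, minus strand: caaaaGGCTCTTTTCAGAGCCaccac
HIST1H2AC, chr6:26124892-26124917, plus strand: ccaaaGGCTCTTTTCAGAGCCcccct
HIST2H2BE, chr1:149857733-149857758, minus strand: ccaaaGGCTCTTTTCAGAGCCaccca
HIST1H4H, chr6:26285354-26285379, minus strand: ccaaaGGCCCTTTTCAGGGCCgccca
HIST1H2AG, chr6:27101289-27101314, plus strand: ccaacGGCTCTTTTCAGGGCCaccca
HIST2H2AC, chr1:149858936-149858961, plus strand: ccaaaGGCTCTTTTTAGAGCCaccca

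The form seen in HIST1H2AC was shared by 11 members from H1, H2A, H2B and H3, and that of HIST1H2BK by 4 members, all H2B. The form of HIST1H4H occurred in both H4 members, and those of HIST1H2AG and HIST2H2AC in 1 member each. Of the 19 members with a stem-loop, 9 had a GENCODE transcript ending between 769 and 37155 bases past it, and the other 10 ended between 4 and 8 bases past it. A polyA signal, AATAAA on the coding strand, lay within 1000 bases past the stem-loop in 8 of the 19 members, against 61.4% of 19680 protein-coding genes within 1000 bases after a stop codon. In HIST1H1C and HIST1H2BD it began 13 bases past the stem-loop.

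Upstream of the genes, the octamer ATTTGCAT, the element bound by the factor OCT1, was searched on both strands in the RefSeq promoter windows (GRCh38.p14, 250 bases before to 50 after the start), which were at hand for 18 members. It was found in 4 of 4 H2A and in 6 of 8 H2B members and in none of the 6 members from H1, H3 and H4, against 2.19% of 27305 genes. The windows around it are shown, octamer in capitals, because neighbouring H2A and H2B genes share them.
HIST1H2BK, chr6:27146886-27146915, minus strand: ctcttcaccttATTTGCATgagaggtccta
HIST1H2BJ and HIST1H2AG, chr6:27132824-27132853, minus strand: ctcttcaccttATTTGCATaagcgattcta
HIST1H2BC and HIST1H2AC, chr6:26124031-26124060, minus strand: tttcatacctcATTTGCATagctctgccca
HIST2H2BE and HIST2H2AC, chr1:149886710-149886739, minus strand: tcggagccctaATTTGCATaaggtggttat

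All are printed on the strand of the H2B gene, with the H2A gene of each pair on the other strand. HIST1H2BO and HIST1H2AM share another such window. The CCAAT box was found on either strand in 17 of the 18 windows, against 39.7% of all genes, and the TATA box TATAAA in 13, against 14.0%.

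Along the chromosomes the rows fell into stretches with and without counts. Of the 73 rows, 27 were listed at 0 in all 15 libraries and 26 had means between 0.06 and 9.50. A position was found for 70 of the 73 rows, and not for HIST1H2BF, HIST1H2BG and HIST1H4F. Among the rows with a position, a run of 10 on chromosome 6 from HIST1H4D to HIST1H2BH, in chr6:26188938-26252303 (GRCh37), was listed at 0. It includes HIST1H1D, which encodes a linker histone. HIST1H2BF reached 1.08 normalized counts, and whether it lies within this run was not determined. HIST2H4A with HIST2H4B, HIST2H3A with HIST2H3C and HIST2H2AA3 with HIST2H2AA4, pairs of duplicated genes on chromosome 1, were also listed at 0. The cause was not tested. The members lay between such runs, and those just above the threshold and the rows just below it were close together, with HIST1H4C at a mean of 13.3, HIST1H2AH at 9.50 and HIST1H4A at 9.09 normalized counts.

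**Figure D1:**
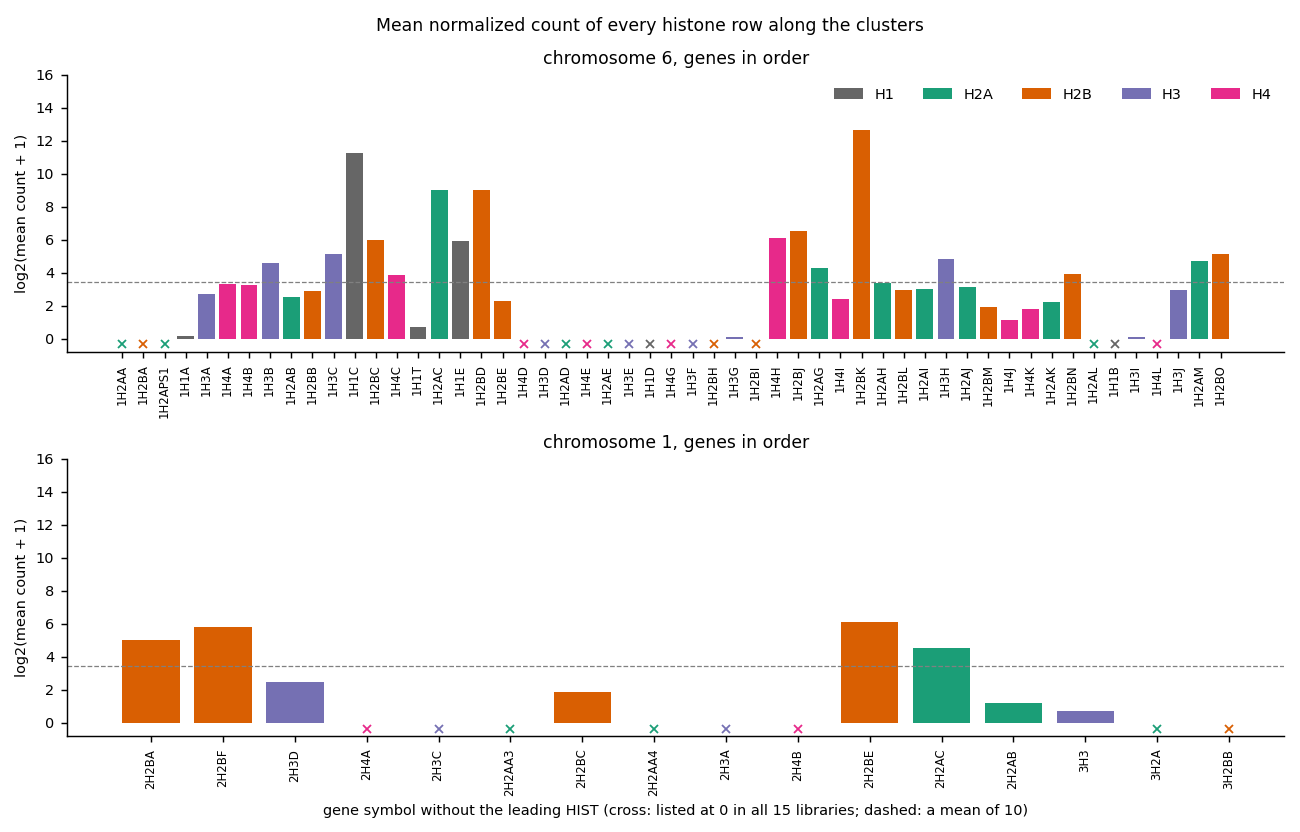
Mean normalized count over the 15 libraries of each histone row with a known position, as log2(mean + 1), against the order of the genes on chromosome 6 (top) and chromosome 1 (bottom), coloured by class, with a cross for rows listed at 0 in all libraries and a dashed line at a mean of 10. Rows without a position and HIST4H4, which lies on chromosome 12, are not drawn. The tallest bars are HIST1H2BK and HIST1H1C, and a run of 10 of the rows drawn on chromosome 6 is at 0.

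A few genes held most of the counts. HIST1H2BK, an H2B gene, made up between 51.5% and 64.9% of the summed counts of the members in each library, and HIST1H2BK, HIST1H1C, HIST1H2BD and HIST1H2AC together between 89.7% and 95.4%. Per kilobase of the canonical GENCODE transcript the order of the means was the same at the top, with 12635 normalized counts per kilobase for HIST1H2BK, 3316 for HIST1H1C, 1061 for HIST1H2BD and 973 for HIST1H2AC. The other members lay between 26.2 and 189 per kilobase. HIST2H2BE, whose canonical transcript of 2224 bases is far longer than the rest, moved from the sixth place by counts to the 19th per kilobase.

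Reads of 75 bases can match more than 1 of these genes. In HIST1H2BK 39.0% of the 75-base windows of the transcript occurred unchanged in a transcript of another gene, in HIST2H2BF 54.1% and in HIST1H2AM 65.9%. HIST1H1C, HIST1H2AC, HIST1H4H, HIST1H1E, HIST1H3C, HIST1H3H, HIST1H3B, HIST1H2AG and HIST1H4C shared none. The remaining members with a sequence shared between 2.9% and 17.9%. The counts of HIST1H2BK, HIST2H2BF and HIST1H2AM are uncertain in this respect. Another GENCODE gene overlapped 9 members, HIST1H2BD, HIST1H2AC and HIST1H4H among them. The methods state default settings for the counting and do not name the strand.

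Depth lay between 14955172 and 44771871 reads assigned to genes (median 18152381), and 3 reads corresponded to between 1.19 and 4.09 normalized counts. Markers of the labelled cell type were present, with KRT8, KRT18, VIM and CD44 at 7100 normalized counts or more in every library. KRT19 stood at 1061 to 3994 and EPCAM at 136 to 456. The hormone receptors ESR1 and PGR, the leukocyte gene PTPRC and the endothelial gene PECAM1 stayed at 23.8 or less, and ALB reached 53.0. Unlike ESR1 and PGR, ERBB2, which encodes the receptor HER2, stood at 1018 to 1584 normalized counts. Whether this level goes with the triple negative label was not tested. RBM47 rose from 168 to 19877 normalized counts in WT10 and from 73.8 to 22084 in MUT3 in the order of the dose. In WT6 it stood at 258, 3137, 8094, 3966 and 10425 at 0, 1, 2.5, 5 and 25 ng/ml, so that the library labelled 5 ng/ml lay below the library labelled 2.5 ng/ml, and the WT6 slopes below follow the labels. Without these WT6 libraries at 2.5 and 5 ng/ml, 10 members were called in WT6, 7 above and 3 below 0, as were 8235 of 12644 genes, and HIST1H3H was no longer among them.

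The libraries also stood apart in a way that touches the histone genes directly. The untreated MUT3 library held the highest of the 5 MUT3 values for 19 of the 20 members, whereas it did so for 17.9% of the 12644 genes tested. In the untreated WT10 library this was the case for 10 of 20 members, against 26.0% of genes, and in the WT6 library at 25 ng/ml for 8, against 30.0%.

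The change with doxycycline was tested by limma in 1 fit over all 15 libraries, with a slope for each clone on log2(dose + 1). A slope is thus the change in log2(normalized count + 1) per unit of log2(dose + 1), and a gene was called at an adjusted p under 0.05 over the 12644 genes tested, which included all 20 members.

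In WT6 cells 10 of 20 members had a dose slope, 6 rising and 4 falling, where 57.5% of all genes tested were called, 29.2% rising and 28.3% falling. The share of members called was therefore close to that of all genes. The risers were HIST1H2BD, HIST1H4H, HIST1H2AC, HIST2H2BE, HIST1H2BK and HIST1H1C, which include the 4 genes with the most counts. HIST2H2BA, HIST2H2BF, HIST1H2AG and HIST1H3H fell. The median slope of the members was 0.09, against 0.01 over all genes. Without WT6 at 25 ng/ml 4 members were called, HIST1H2BK, HIST1H1C and HIST1H2BD rising and HIST2H2BF falling, as were 4623 of 12644 genes, and the median of the members was 0.18. In bulk RNA, fewer cells with a transcript and less of it per cell cannot be told apart.

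**Figure D2:**
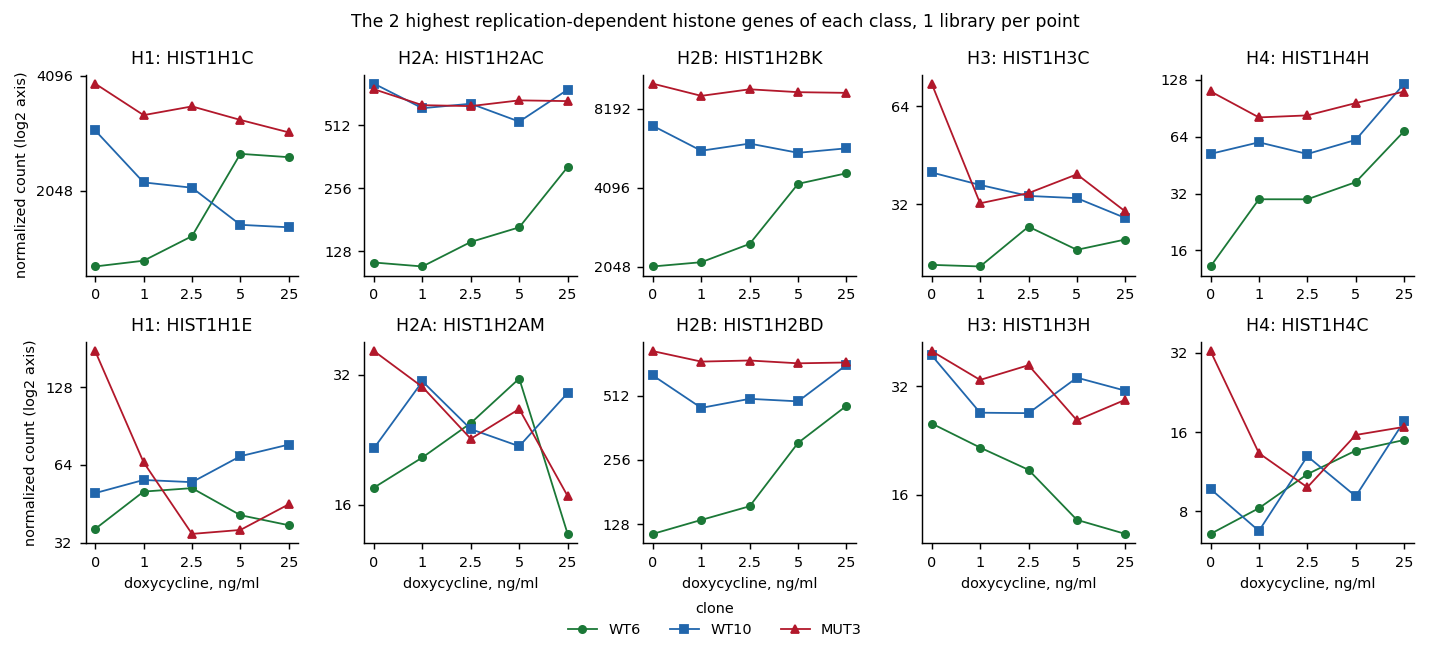
Normalized counts (log2 axis) of the 2 members of each class with the highest mean, against the doxycycline concentration in ng/ml, with 1 library per point and lines joining the libraries of WT6 (circles), WT10 (squares) and MUT3 (triangles). HIST1H2BK, HIST1H2BD, HIST1H2AC and HIST1H4H climb in WT6, and the untreated MUT3 library is the highest MUT3 point in each panel.

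HIST1H2BK had the highest count of the members in every library. In WT6 cells it stood at 2054 normalized counts untreated and at 2132, 2504, 4244 and 4656 at 1, 2.5, 5 and 25 ng/ml. In WT10 cells the same doses gave 7061, 5675, 6043, 5573 and 5796, and in MUT3 cells 10227, 9190, 9734, 9492 and 9434. The 3 clones did not overlap, and a step up was seen in WT6 alone, between 2.5 and 5 ng/ml. Genes outside the members also moved between these WT6 libraries. H2AFJ went from 569 to 1191, LSM10 from 867 to 1557 and KRT18 from 10846 to 17114, whereas POLA1 went from 717 to 550 and SUPT16H from 7728 to 5375. RBM47 itself went from 8094 to 3966. The cause was not tested. The WT6 slope of HIST1H2BK was 0.29 ± 0.04 (SE, adjusted p = 7.7e-05), a 2.27-fold difference between 25 ng/ml and no doxycycline. The slope was -0.05 in WT10 (95% interval -0.14 to 0.04) and -0.02 in MUT3 (-0.11 to 0.08).

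HIST1H2BD encodes another H2B. Its counts in WT6 cells were 115, 134, 155, 308 and 460 from 0 to 25 ng/ml, the steepest slope of all members (0.46 ± 0.06, adjusted p = 5.4e-05), with a 3.99-fold difference between the ends. In WT10 cells they were 638, 449, 496, 482 and 715, with the low values at the middle doses, and in MUT3 cells 830, 741, 750, 728 and 734. HIST1H2BK, HIST1H2BD and HIST1H1C kept a WT6 slope whichever library was left out.

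HIST1H1C encodes the linker histone H1.2. In WT6 cells it stood at 1296, 1342, 1557, 2559 and 2508 normalized counts (slope 0.23 ± 0.05, adjusted p = 0.00075). The rise again came between 2.5 and 5 ng/ml, where genes outside the members also moved. WT10 cells showed the opposite order, with 2947, 2154, 2085, 1667 and 1642, and the slope was -0.17 ± 0.05 (adjusted p = 0.018). Without the untreated WT10 library it was -0.11 (adjusted p = 0.20), and without WT10 at 25 ng/ml -0.30 (adjusted p = 0.13). MUT3 cells gave 3908, 3232, 3407, 3140 and 2912, all above every WT6 value and all but the last above every WT10 value. The other H1 member, HIST1H1E, which encodes H1.4, stood at 36.2, 50.4, 52.0, 40.9 and 37.4 in WT6 and at 49.8, 55.9, 54.9, 69.1 and 76.7 in WT10. In MUT3 cells it dropped from 176 in the untreated library to 65.5, 34.6, 35.8 and 45.0, so a single library set it apart. HIST1H1E passed the test in no clone.

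Among the H2A genes HIST1H2AC alone rose in WT6 cells, and HIST1H2AG fell. HIST1H2AC stood at 113, 108, 142, 166 and 323 in WT6, at 807, 616, 647, 532 and 755 in WT10 and at 759, 637, 631, 672 and 666 in MUT3. All 5 WT6 values lay below those of the other clones. Its WT6 slope of 0.36 ± 0.06 (adjusted p = 0.00025) was lost without WT6 at 25 ng/ml, where it was 0.24 (adjusted p = 0.15). HIST1H2BC, which shares its octamer window, stood at 20.6 to 39.9 in WT6, with a slope of 0.12 ± 0.09 that missed the threshold (adjusted p = 0.26). HIST1H2AG, with 15.3, 13.4, 17.9, 9.54 and 4.98 in WT6, had a slope of -0.31 ± 0.11 (adjusted p = 0.021) that was lost without the library at 25 ng/ml (-0.16, adjusted p = 0.53), by edgeR (adjusted p = 0.081), with genes down to a mean of 1 (adjusted p = 0.062) and with WT6 fitted alone (adjusted p = 0.089). HIST1H2AM, the H2A gene with the next highest mean, ran between 13.7 and 31.3 in WT6, 21.6 and 30.9 in WT10 and 16.8 and 36.3 in MUT3, with overlap between all clones and no slope called.

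HIST1H4H, an H4 gene, and HIST2H2BE, an H2B gene, were the members that rose in both wild type clones. HIST1H4H stood at 13.2, 29.9, 29.8, 36.8 and 68.5 in WT6, at 51.9, 59.8, 51.9, 61.6 and 122 in WT10 and at 111, 81.0, 83.0, 96.5 and 111 in MUT3. The slopes were 0.42 ± 0.08 in WT6 (adjusted p = 0.00056), 0.28 ± 0.06 in WT10 (adjusted p = 0.0084) and 0.04 in MUT3 (95% interval -0.09 to 0.16). HIST2H2BE stood at 38.4, 46.3, 46.9, 49.0 and 110 in WT6, at 74.6, 61.7, 62.8, 67.6 and 167 in WT10 and at 100, 62.2, 48.4, 30.3 and 61.8 in MUT3. In both wild type clones the value at 25 ng/ml stood well above the other 4.

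The slope of HIST2H2BE was 0.33 ± 0.11 in WT6 (adjusted p = 0.017) and 0.30 ± 0.09 in WT10 (adjusted p = 0.035). The libraries at 25 ng/ml decided both genes in part: without that WT6 library the WT6 slope was 0.12 for HIST2H2BE (adjusted p = 0.69) and 0.48 for HIST1H4H (adjusted p = 0.054), and without that WT10 library the WT10 slope was -0.05 (adjusted p = 0.91) and 0.06 (adjusted p = 0.85). The WT10 slope of HIST2H2BE also missed the threshold without WT10 at 1 ng/ml (adjusted p = 0.083) or at 2.5 ng/ml (adjusted p = 0.053). HIST1H4C, the other H4 member, stood at 6.58, 8.24, 11.1, 13.6 and 14.9 in WT6, at 9.74, 6.75, 12.97, 9.14 and 17.6 in WT10 and at 32.5, 13.3, 9.88, 15.6 and 16.8 in MUT3. The WT6 values follow the order of the dose, but the slope of 0.23 ± 0.12 missed the threshold (adjusted p = 0.12).

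No H3 member rose. HIST1H3C stood at 20.8, 20.6, 27.3, 23.2 and 24.9 in WT6, at 40.0, 36.6, 33.9, 33.4 and 29.01 in WT10 and at 75.0, 32.2, 34.6, 39.5 and 30.4 in MUT3, with no slope called. HIST1H3H, with 25.2, 21.6, 18.8, 13.6 and 12.5, fell in WT6 (slope -0.22 ± 0.08, adjusted p = 0.034). The call was lost without WT6 at 0, 1, 5 or 25 ng/ml (adjusted p between 0.051 and 0.14) and by edgeR's quasi-likelihood test (adjusted p = 0.053). By limma it was also lost with WT6 fitted alone (adjusted p = 0.10), with dose in ng/ml (adjusted p = 0.13) and with genes down to a mean of 1 (adjusted p = 0.0505). HIST1H3H was 38.9, 27.0, 26.9, 33.8 and 31.1 in WT10 and 40.0, 33.3, 36.6, 25.7 and 29.3 in MUT3. HIST1H3B stood at 4.38, 19.6, 28.99, 8.17 and 21.2 in WT6, in no order of dose, and no slope was called.

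HIST2H2BF and HIST2H2BA, H2B rows of chromosome 1, were the other members that fell in WT6 cells. HIST2H2BF dropped from 99.7 to 64.9, 75.9, 42.2 and 36.1 (slope -0.32 ± 0.07, adjusted p = 0.0026), and this call was kept whichever library was left out. In WT10 cells it was between 24.9 and 37.9 and in MUT3 cells between 61.0 and 91.3. The pseudogene HIST2H2BA dropped from 34.0 to 21.6, 21.3, 14.99 and 9.97 in WT6 (slope -0.35 ± 0.10, adjusted p = 0.0070), and missed the threshold without WT6 at 0 (adjusted p = 0.078) or at 25 ng/ml (adjusted p = 0.071). Over the classes, the numbers that rose and fell in WT6 were 1 and 0 of 2 for H1, 1 and 1 of 4 for H2A, 3 and 2 of 9 for H2B, 0 and 1 of 3 for H3 and 1 and 0 of 2 for H4. Of the 9 members with an annotated end past the stem-loop 4 rose and 2 fell, and of the 10 without 2 rose and 1 fell. The median WT6 slopes of these groups were 0.12 and 0.11. Of all genes tested 29.2% rose and 28.3% fell in WT6.

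In WT10 cells 3 members were called, HIST1H4H and HIST2H2BE rising and HIST1H1C falling, where 20.0% of all genes were called, 10.2% rising and 9.83% falling. In H2A and H3 no member was called. The median slope was -0.02, against -0.00 over all genes. Without the untreated WT10 library the median turned to 0.06, with 14 of 20 slopes above 0, and 4 members were called, HIST2H2BE, HIST1H4H and HIST1H2BD rising and HIST2H2BA falling, as were 2060 of 12644 genes. Without WT10 at 25 ng/ml limma called 0 members, with 4 at an unadjusted p under 0.05, and 6 of the 12644 genes. In MUT3 cells limma called 0 of 20 members, as it called 0% of all genes, while 5 members had an unadjusted p under 0.05 and edgeR also called 0 members. Of the MUT3 slopes 18 of 20 were below 0, with a median of -0.12 against 0.00 over all genes. Without the untreated MUT3 library 11 were below 0 and the median was -0.02.

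**Figure D3:**
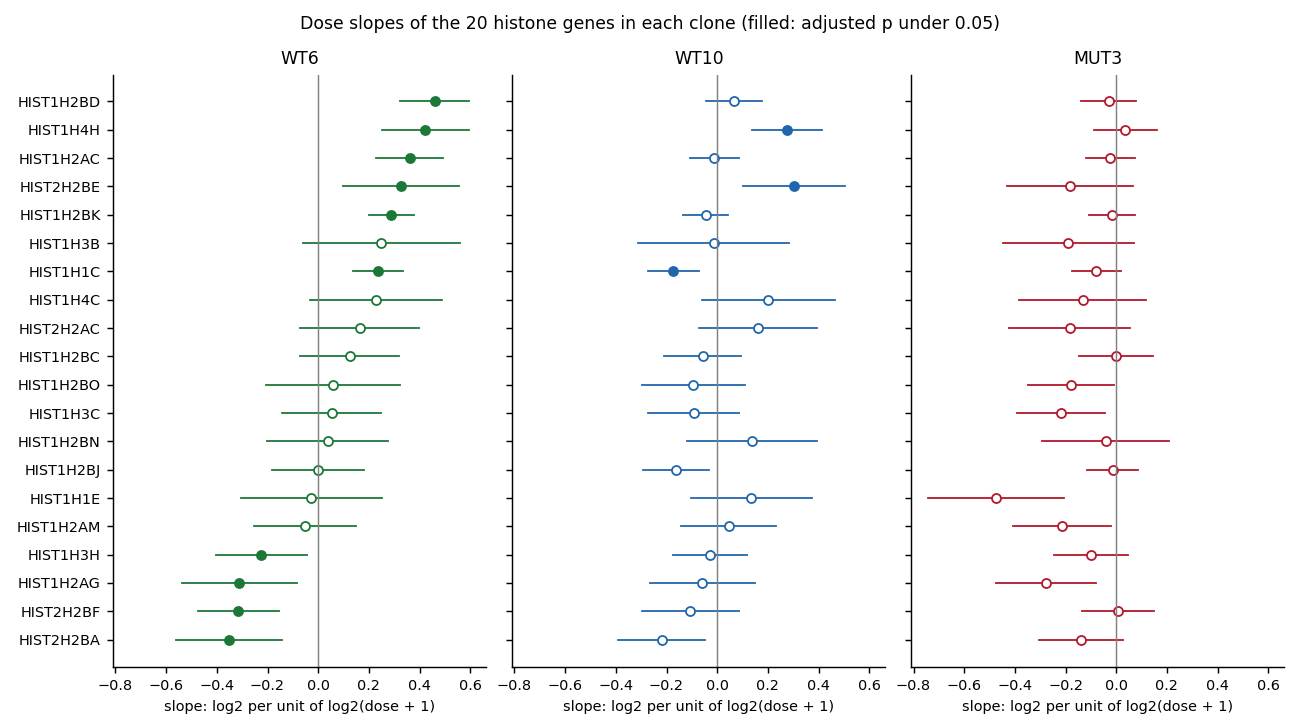
Dose slopes of the 20 members in WT6, WT10 and MUT3 cells, in log2 per unit of log2(dose + 1), with 95% intervals and filled points at an adjusted p under 0.05, in the order of the WT6 slope. In WT6 6 genes lie above and 4 below 0 with filled points, in WT10 2 and 1, and in MUT3 none, with 18 of 20 points left of 0.

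Transcript length moved with the slope over all genes in WT6 cells, and histone transcripts are short. The median WT6 slope was 0.15 in the 2424 genes with the shortest transcripts, up to 1780 bases, and -0.11 in the 2424 with the longest, and 61.9% and 9.32% of these genes rose. Of the 20 members 19 had a canonical transcript within the shortest group. With trends of length and GC content removed, 8 members were called in WT6: HIST1H2BD (0.30), HIST1H4H (0.28), HIST1H2AC (0.18) and HIST1H2BK (0.12) rose, and HIST2H2BF (-0.49), HIST2H2BA (-0.48), HIST1H2AG (-0.47) and HIST1H3H (-0.40) fell. HIST1H1C was at 0.06 (adjusted p = 0.059) and HIST2H2BE at 0.27 (adjusted p = 0.051), and the median of the members turned to -0.08. In WT10 and MUT3 the medians of the length groups lay between -0.02 and 0.02.

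Whether wild type RBM47 gave another slope than the mutant was asked by comparing the mean slope of WT6 and WT10 with that of MUT3. In this comparison 5 of 20 members were called, all with the higher slope in wild type cells, where 24.6% of all genes were called and 10.1% were higher. The differences were 0.53 ± 0.15 for HIST1H1E, 0.50 ± 0.14 for HIST2H2BE, 0.31 ± 0.08 for HIST1H4H, 0.29 ± 0.07 for HIST1H2BD and 0.20 ± 0.06 for HIST1H2AC (adjusted p between 0.0066 and 0.027). The calls changed with the libraries used. Without the untreated MUT3 library, in which HIST1H1E stood at 176, 1233 of 12644 genes were called and none of the 5 was, with differences of 0.14 for HIST1H1E, 0.29 for HIST2H2BE, 0.22 for HIST1H4H, 0.27 for HIST1H2BD and 0.15 for HIST1H2AC, and HIST2H2BF was called with the lower slope in wild type cells. Without WT10 at 25 ng/ml limma called 1064 genes and 0 members, with 4 members at an unadjusted p under 0.05 and differences of 0.55, 0.32, 0.21, 0.19 and 0.10 in the same order. Without WT6 at 25 ng/ml the calls of HIST2H2BE (0.40, adjusted p = 0.089) and HIST1H2AC (0.14, adjusted p = 0.21) were lost. Without MUT3 at 25 ng/ml 3 genes were called in all, of the members HIST1H1E, and the differences of the other 4 were larger than with it, at 0.94 for HIST2H2BE, 0.43 for HIST1H4H, 0.33 for HIST1H2BD and 0.24 for HIST1H2AC. Without WT6 at 5 ng/ml 8 members and 4914 genes were called. With length and GC trends removed 4 members were called, HIST2H2BE (0.46), HIST1H1E (0.44) and HIST1H2BD (0.19) higher and HIST2H2BF (-0.32) lower in wild type cells, as were 4405 of 12117 genes, while HIST1H4H was at 0.21 (adjusted p = 0.055) and HIST1H2AC at 0.09 (adjusted p = 0.17). Of H3 no member was called in the fit over all libraries.

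The slopes of WT6 and WT10 differed for 4 of 20 members, all higher in WT6, where 14.4% of all genes were called and 7.28% were higher in WT6. They were the 4 members with the most counts: HIST1H1C (0.41 ± 0.07, adjusted p = 0.0064), HIST1H2BD (0.39 ± 0.08, adjusted p = 0.015), HIST1H2AC (0.37 ± 0.08, adjusted p = 0.015) and HIST1H2BK (0.33 ± 0.06, adjusted p = 0.0092). Of H3 and H4 no member was called, and for HIST1H4H the difference was 0.15 ± 0.10 (adjusted p = 0.32) and for HIST2H2BE 0.03 ± 0.14 (adjusted p = 0.91). Without the untreated WT10 library, the highest WT10 library for HIST1H1C, HIST1H2AC and HIST1H2BK, none of the 4 was called, with differences between 0.28 and 0.35 (adjusted p between 0.055 and 0.080), and 59 of 12644 genes were called, against 1817 with it. Without WT6 at 25 ng/ml those of HIST1H2BD (0.49, adjusted p = 0.073) and HIST1H2AC (0.25, adjusted p = 0.22) were lost, and 73 genes were called. With length and GC trends removed HIST1H1C (0.25), HIST1H2BD (0.25) and HIST1H2BK (0.18) were higher in WT6 and HIST1H3H (-0.36) lower, where 1840 of 12117 genes were called, and HIST1H2AC was at 0.21 (adjusted p = 0.063).

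Levels also differed between clones. The mean over the doses on the log2 scale differed between WT6 and WT10 for 13 of 20 members, 12 lower and 1 higher in WT6, where 75.3% of all genes differed, 36.9% lower and 38.5% higher. The median difference was -0.59 over the members and 0.02 over all genes. HIST1H2AC was lower in WT6 by the most, at -2.09 ± 0.13, followed by HIST1H2BJ (-1.51 ± 0.17), HIST1H2BD (-1.43 ± 0.14), HIST1H2BO (-1.34 ± 0.25) and HIST1H2BC (-1.20 ± 0.19), with adjusted p between 7.0e-10 and 0.00016. All of them are H2A or H2B genes. For HIST1H2BJ the 5 WT6 values ran from 25.2 to 29.8, the WT10 values from 65.2 to 117 and the MUT3 values from 129 to 184, with no overlap between clones. HIST2H2BF was higher in WT6 (0.90 ± 0.18, adjusted p = 0.00034). Of H1 no member was called, with HIST1H1C at -0.21 ± 0.11 (adjusted p = 0.081), and of H4 HIST1H4H (-1.04 ± 0.18). The call of HIST1H3C (-0.55) was lost without the untreated WT10 library (adjusted p = 0.053), and that of HIST1H2AG (-0.63) without it (adjusted p = 0.063) or without WT6 at 25 ng/ml (adjusted p = 0.19). That of HIST2H2BE (-0.56) was lost without any of 7 libraries, the WT6 libraries at 0, 1, 2.5 and 5, WT10 at 25 and MUT3 at 1 and 2.5 ng/ml, with adjusted p between 0.057 and 0.25.

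WT10 and MUT3, clones of 1 line by the methods, differed in level for 7 of 20 members, all lower in WT10, where 48.3% of all genes differed and 25.3% were lower. The median difference was -0.36 over the members and -0.02 over all genes. Among the called members the largest differences were those of HIST2H2BF (-1.14 ± 0.18), HIST1H2BJ (-0.98 ± 0.12), HIST1H2BO (-0.76 ± 0.19), HIST1H1C (-0.69 ± 0.10) and HIST1H2BK (-0.68 ± 0.10), with adjusted p between 7.9e-06 and 0.0047. The other called members were HIST1H4H and HIST1H2BD. No H2A or H3 member was called, and of H1 and H4 1 member each. Without the untreated MUT3 library 8 members were called, 7 lower and 1 higher in WT10, and the median was -0.18. These 2 comparisons share the WT10 libraries.

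**Figure D4:**
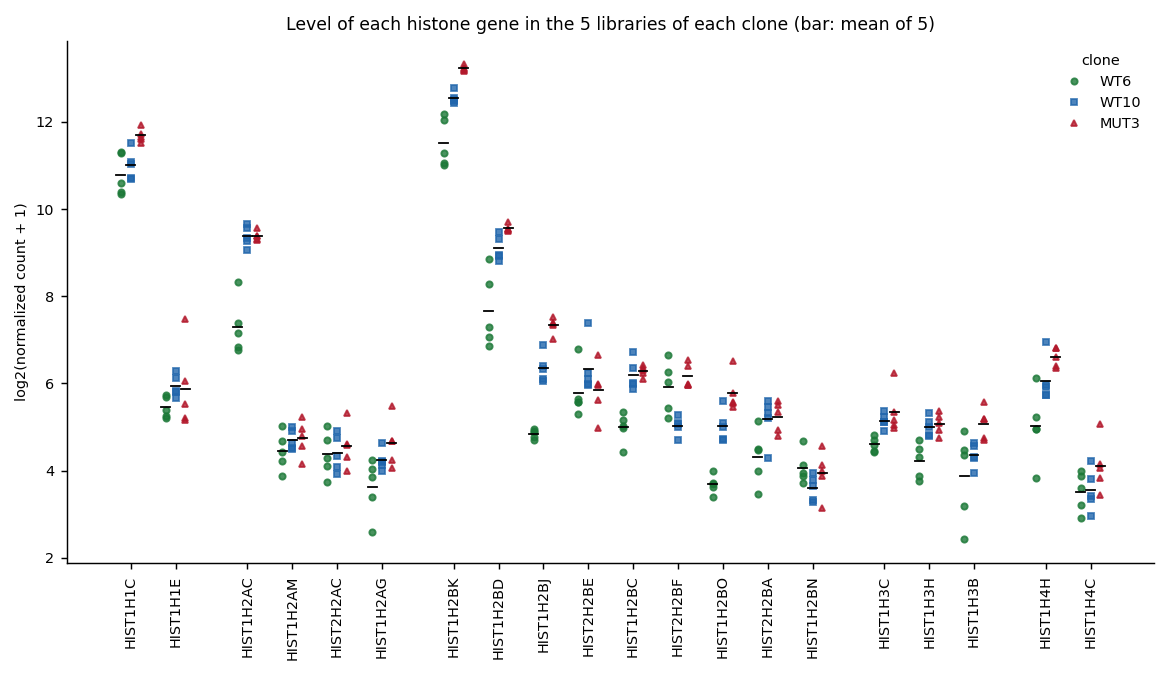
Levels of the 20 members, as log2(normalized count + 1), in the 5 libraries of WT6 (circles), WT10 (squares) and MUT3 (triangles), ordered by class, with a bar at the mean of each clone. The clone means lie in the order WT6, WT10, MUT3 for all members but HIST2H2BE, HIST1H1E, HIST2H2BF and HIST1H2BN, in some by small steps. All WT6 values of HIST1H2AC lie below those of the other clones.

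Genes that act while DNA is copied were looked at beside the histones. Among 23 S phase genes, which encode the replication helicase, polymerases and their partners, 19 fell and 0 rose in WT6, 11 fell and 0 rose in WT10, and 0 were called in MUT3, with median slopes of -0.14, -0.08 and -0.00. Of all genes tested 28.3% fell and 29.2% rose in WT6, 9.83% fell and 10.2% rose in WT10, and 0% were called in MUT3. In 12 of the 23 S phase genes the slope was lower in wild type cells than in MUT3, against 14.6% of all genes. The summed counts of the S phase genes at 0, 1, 2.5, 5 and 25 ng/ml were 111567, 107266, 101359, 98438 and 71908 in WT6. In WT10 they were 81102, 79631, 78828, 75988 and 62188, and in MUT3 68493, 69427, 70899, 70052 and 68714. Without WT10 at 25 ng/ml a WT10 slope was called for 6 of the 12644 genes. Calls in the lists given here and below were counted in the fit over all libraries only. POLA1, a subunit of the polymerase that starts new strands, dropped from 936 to 331 in WT6 (slope -0.33 ± 0.03, adjusted p = 6.2e-06), and MCM2, a helicase subunit, from 4874 to 2564 (-0.21 ± 0.03, adjusted p = 2.0e-05). Of 17 histone chaperones, which escort histones to DNA, 10 fell in WT6, 9 in WT10 and 0 in MUT3, and none rose, with median slopes of -0.10, -0.07 and 0.00. SUPT16H, a subunit of the chaperone FACT, dropped from 9867 to 3277 in WT6 (-0.36 ± 0.03, adjusted p = 3.0e-06). ATRX, which helps to load the variant H3.3, dropped from 522 to 222 (-0.29 ± 0.04, adjusted p = 6.1e-05).

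The machinery that makes the tail-less end moved both ways. So did all genes tested, with 29.2% rising and 28.3% falling in WT6 and 10.2% and 9.83% in WT10. Of 12 genes for the processing of the 3′ end 3 rose and 6 fell in WT6 and 2 rose and 1 fell in WT10, with median slopes of -0.06 and -0.02. SLBP, which binds the stem-loops shown above, rose in both wild type clones, from 3255 to 4462 in WT6 (0.11 ± 0.03, adjusted p = 0.0026) and from 1363 to 1847 in WT10 (0.10 ± 0.03, adjusted p = 0.018), and stood between 1799 and 1946 in MUT3. LSM10, a subunit of the U7 particle that directs the cleavage, went from 839 to 1784 in WT6 (0.27 ± 0.04, adjusted p = 0.00018), and LSM11, its partner in the particle, from 107 to 53.6 (-0.26 ± 0.08, adjusted p = 0.012). Of 5 genes of histone mRNA decay 1 rose and 3 fell in WT6 (median -0.14), and 1 fell in WT10. LSM1, part of the ring that binds the uridylated end, rose (0.21 ± 0.04, adjusted p = 0.00085), and ZCCHC11, a terminal uridyltransferase, fell, with 769 normalized counts untreated and 282 at 25 ng/ml (-0.33 ± 0.04, adjusted p = 2.5e-05). Of 9 regulators of histone gene transcription 1 rose and 5 fell in WT6 (median -0.12) and 2 fell in WT10, with NPAT, the coactivator of histone genes, going from 711 to 372 (-0.21 ± 0.04, adjusted p = 0.00080) and CDC25A, a phosphatase that activates the cyclin-dependent kinases, from 2063 to 1081. In MUT3 0 genes of these 3 lists were called, as were 0% of all genes.

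Histone genes classed as replication-independent, whose mRNAs mostly carry a polyA tail, gave a further comparison. Of 12 such genes 10 were tested, and 2 rose and 4 fell in WT6, 4 fell in WT10 and 0 were called in MUT3. Of all genes tested 57.5% were called in WT6, 20.0% in WT10 and 0% in MUT3. H2AFJ, an H2A variant, went from 555 to 1537 in WT6 cells (0.35 ± 0.05, adjusted p = 8.8e-05), and CENPA, the centromeric H3, from 1118 to 519 (-0.22 ± 0.04, adjusted p = 0.00029). H2AFZ, which encodes the variant H2A.Z, rose in WT6 (0.12 ± 0.04, adjusted p = 0.031), with 15615, 15942, 16342, 26644 and 20580 normalized counts, the highest of them at 5 ng/ml. It stood between 14721 and 16335 in WT10 and between 17033 and 18667 in MUT3. The slopes of these lists share the libraries, and the length trend, of the histone genes above. With length and GC trends removed the median WT6 slope was -0.15 for the S phase genes and -0.12 for the chaperones. It went from -0.01 to -0.09 for the genes classed as replication-independent histones. For 3′ end processing the median was then -0.07, for histone mRNA decay -0.09 and for histone gene transcription -0.08.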

How the data were processed

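RNA of the 15 cultures was polyA selected, made into TruSeq libraries and sequenced in pairs of 75 bases. Per the methods, the authors aligned reads to hg19 (STAR), used HTSeq 0.5.4 to assign them to genes and divided the counts by DESeq size factors, and the deposited signal is this normalized count. The methods state default settings for HTSeq, and name neither the gene annotation nor the strand. Of all values 100% were whole multiples (within 0.01) of the worth of 1 read in their library, so that the reads could be recovered. Rows that name no gene stayed out of library totals and tests: reads on no feature were 56.5 to 59.6% and ambiguous reads 0.527 to 0.617% of each library.

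Values were tested as log2(normalized count + 1) in 12644 genes with a mean of at least 10 in each clone, with limma 3.58.1 (vooma weights) in R 4.3.3. The fit had an intercept and a slope on centred log2(dose + 1) for each of the 3 clones and 9 residual degrees of freedom. P-values were adjusted by Benjamini-Hochberg over all genes tested and called under 0.05. Without replicates, the spread is that of the 5 libraries of a clone around a line, so departures from a line count as error and a clone is 1 culture per dose. On simulated counts for the WT6 slope in the 12644 genes, with 200 genes changed by a slope of 0.4, between 94.9% and 96.0% of them were recovered, with 2.05 to 6.40% false calls. The simulated noise was independent between genes, whereas 7272 genes were called in the WT6 data. Of the members only HIST1H2BD and HIST1H4H had a WT6 slope above 0.4. These rates therefore need not hold for the calls given here.

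Alternatives were a pseudocount of 8, a mean of at least 1 in each clone, slopes with trends of transcript length and GC content removed, edgeR 4.0.16 (quasi-likelihood, TMM) on recovered reads, each clone fitted alone, dose in ng/ml, the log2 RBM47 count in place of the dose, and each library left out. Leaving out both WT6 libraries at 2.5 and 5 ng/ml was chosen after seeing the data. Lengths, overlaps and stem-loops came from GENCODE 44 on GRCh37, and promoters from RefSeq (GRCh38.p14). The members and gene lists were chosen with earlier results of these data known. Values are given for the 2 members with the highest mean in each class, up to 5 called members of the largest difference in each comparison, the genes next to the threshold, RBM47, SLBP and H2AFZ, and up to 2 called genes of the largest WT6 slope in each list. Other genes named were chosen after their values were seen. Floors cover counting error only.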

Additional observations from a re-analysis of the deposited data

Results flagged for a closer look

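The slope against dose differed between wild type RBM47 and the mutant, by limma's test of the difference itself, for HIST1H1E (0.53), HIST2H2BE (0.50), HIST1H4H (0.31), HIST1H2BD (0.29) and HIST1H2AC (0.20), each higher in the mean of WT6 and WT10 than in MUT3. These were 5 of 20 members, where 24.6% of all genes were called and 10.1% were higher in wild type cells. None of the 5 was called without the untreated MUT3 library, where 1233 of 12644 genes were. That library held the highest MUT3 value for 19 of 20 members.

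Between the wild type clones the slope differed for HIST1H1C (0.41), HIST1H2BD (0.39), HIST1H2AC (0.37) and HIST1H2BK (0.33), each higher in WT6 than in WT10. These were 4 of 20 members, where 14.4% of all genes were called and 7.28% were higher in WT6. None of these members was called without the untreated WT10 library, where 59 of 12644 genes were, against 1817 with it. The part of these libraries in the differences was not tested further.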

How the results depend on the processing

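Under a pseudocount of 8 all 42 calls of members kept their direction and their side of the threshold, and under a mean of at least 1 and under edgeR 40 of 42 did. With the log2 RBM47 count in place of the dose 0 members were called for the WT6 slope, the WT10 slope, the wild type against mutant slope and the WT6 against WT10 slope, where limma called 2, 89, 0 and 0 genes in all and 8, 3, 4 and 4 members had an unadjusted p under 0.05. With dose in ng/ml 3 members were called for wild type against mutant (1612 genes) and 0 for WT6 against WT10 (222 genes, and 4 members at an unadjusted p under 0.05). With length and GC trends removed 5 were called in WT10 (4368 of 12117 genes). With each clone fitted alone 2 were called in MUT3, HIST1H1C and HIST1H1E (176 genes). Without both WT6 libraries at 2.5 and 5 ng/ml 9 were called for wild type against mutant (5621 genes). The causes were not tested. Leaving out 1 library at a time gave 4 to 11 called members for WT6, 0 to 4 for WT10, 0 to 1 for MUT3, 0 to 8 for wild type against mutant, 0 to 4 for WT6 against WT10, and for the levels 11 to 14 and 7 to 9. The WT10 slope of HIST2H2BE turned from 0.30 to -0.055 without WT10 at 25 ng/ml, and was 0.44 without the untreated WT10 library. No paired analysis was possible because the labels give no replicate numbers beyond 1 to block on, and dose is already a term of the fit. With 1 culture per clone and dose, clone, line and RBM47 form cannot be told apart, and members with means under 30 rest on few reads.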
